A study of Mus musculus with 7 samples.

Results

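The 10 genes described here carry prostaglandin synthesis and reception in mouse myotubes. They were taken by gene symbol from a list of arachidonic acid release, cyclooxygenase, terminal synthase, breakdown and receptor genes. All 10 were among the 26607 genes listed for every library, and 9 of them were among the 19144 genes above 0 in at least 1 library, which were the genes tested. The member left out of the test was Ptger2, at 0 reads in every library.

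The cells were C2C12 myotubes, the multinucleated cells formed when the established mouse myoblast line C2C12 differentiates. Control myotubes received no stimulation (3 libraries, replicates 1, 3 and 4), and EPS myotubes received electrical pulse stimulation (4 libraries, replicates 1 to 4), a cell culture stand-in for muscle contraction. According to the methods of the study, myotubes differentiated for 3 days were paced at 1 Hz for 24 h and then rested for 1 h. Both groups were the same unmodified line in culture, so nerve, vessel and immune cells of a muscle were not part of the model, and 1 time point was measured.

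Prostaglandins are lipid signals made from arachidonic acid. Cytosolic phospholipase A2 frees the acid from membranes, the cyclooxygenases Ptgs1 (COX-1) and Ptgs2 (COX-2) turn it into prostaglandin H2, and terminal synthases convert that into prostaglandin E2, prostacyclin and related products, which act on receptors of the same or nearby cells before a dehydrogenase inactivates them. In skeletal muscle, prostaglandins are known for their part in regeneration, in myoblast proliferation and fusion, and in the adaptation to contraction, and Ptgs2 is the inducible cyclooxygenase of many tissues.

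The libraries held 16616917 to 22120641 assigned reads, and 3 reads corresponded to 0.136 to 0.181 CPM (reads scaled to the total of each library). Control replicate 4 stood apart from the other 6 libraries, with 14014 genes above 0 against 16144 to 16984, and with 359 genes at 1 to 5 reads against 2670 to 3181. It was the highest of all 7 libraries in 17.6% of the genes tested and in 4 of the 10 members (Ptges, Ptges2, Ptges3 and Ptgis), so the log2 fold change of each member tested is given with and without it. All 8 myotube markers were detected, with a summed level of 9994 to 14740 CPM in control and 8203 to 11140 CPM in EPS libraries, none of them past the threshold given below (P under 0.01 and 2-fold). Actn2 was lower in every EPS library than in every control library (log2 fold change -0.99), as were 2.85% of all genes tested. The other myotube markers had overlapping groups, at -1.07 for Myog, -0.63 for Ckm, -0.46 for Des, -0.44 for Myh3, -0.14 for Tnnt3, -0.11 for Acta1 and 0.12 for Mymk. Control replicate 4 was the highest library of Myog (1794 CPM, against 473 and 565 in the other controls) and of Ckm (241 against 100 and 116). Values without that library are not given for the markers. The summed level of the 6 markers of myoblasts and dividing cells was 243 to 313 CPM in control and 296 to 849 CPM in EPS libraries. The members of that list did not move together, with log2 fold changes of 1.27 for Mki67, 0.86 for Top2a and 1.38 for Ccnb1, but 0.20 for Myf5, -0.12 for Pax7 and -1.09 for Id1, again none past the threshold. Id1 was lower in every EPS library than in every control library, and control replicate 4 was its highest library (45.7 CPM, against 17.9 and 17.6 in the other controls). The part of dividing or less differentiated cells in the differences below was not tested. Of the markers of cells known for prostaglandin production, those of macrophages summed to 0.816 to 1.99 CPM in control and 1.49 to 2.87 CPM in EPS libraries, with the defining marker Adgre1 at 0 in every library. Among them Csf1r, under 1 CPM throughout, was higher in every EPS library than in every control library (log2 fold change 0.34), as were 7.76% of all genes tested. It stood at 0.117, 0.181 and 0 CPM in control, no more than 3 reads a library, and at 0.372, 0.292, 0.228 and 0.690 CPM in EPS libraries. Cd68 (0.41), Lyz2 (-0.31) and Ptprc (-0.01) had overlapping groups, and none of these was past the threshold. The endothelial markers did not exceed 1.54 CPM in sum. The 4 mast cell markers summed to 0 to 0.816 CPM in control and 0.106 to 0.411 CPM in EPS libraries, all of it Cma1, with Kit, Cpa3 and Mcpt4 at 0 in every library. The 4 adipocyte markers summed to 0 CPM in control and 0 to 0.140 CPM in EPS libraries, with Plin1 and Lep at 0 in every library. The fibroblast markers summed to 575 to 1061 CPM in control and 508 to 1006 CPM in EPS libraries, with Thy1 at or near 0 and log2 fold changes of 0.70 for Pdgfra, which was higher in every EPS library, -0.89 for Dcn, -0.89 for Lum and -0.26 for Col1a1, none past the threshold.

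The promoters of Ptgs1, Ptgs2 and Ptger4 are printed because these were the members whose EPS level was higher at an unadjusted P under 0.05. Each sequence runs from 250 bases before to 50 bases after the annotated start site, in the direction of transcription, and was taken from RefSeq on GRCm38.p6. Capitals mark matches to the motifs named after the sequences. The windows are chr2:36230176-36230475 on the plus strand for Ptgs1, chr1:150099781-150100080 on the plus strand for Ptgs2 and chr15:5244138-5244437 on the minus strand for Ptger4.
Ptgs1: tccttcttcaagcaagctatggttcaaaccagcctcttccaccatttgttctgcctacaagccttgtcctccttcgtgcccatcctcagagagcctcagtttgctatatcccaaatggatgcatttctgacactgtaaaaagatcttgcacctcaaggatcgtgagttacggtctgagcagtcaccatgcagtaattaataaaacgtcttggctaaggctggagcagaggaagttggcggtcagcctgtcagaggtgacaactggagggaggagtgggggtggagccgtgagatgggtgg
Ptgs2: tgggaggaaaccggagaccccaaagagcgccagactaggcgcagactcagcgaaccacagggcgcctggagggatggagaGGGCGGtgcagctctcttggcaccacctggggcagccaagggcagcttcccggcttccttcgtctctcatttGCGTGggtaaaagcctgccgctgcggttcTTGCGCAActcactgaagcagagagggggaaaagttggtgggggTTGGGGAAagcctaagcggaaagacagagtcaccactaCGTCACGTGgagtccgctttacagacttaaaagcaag
Ptger4: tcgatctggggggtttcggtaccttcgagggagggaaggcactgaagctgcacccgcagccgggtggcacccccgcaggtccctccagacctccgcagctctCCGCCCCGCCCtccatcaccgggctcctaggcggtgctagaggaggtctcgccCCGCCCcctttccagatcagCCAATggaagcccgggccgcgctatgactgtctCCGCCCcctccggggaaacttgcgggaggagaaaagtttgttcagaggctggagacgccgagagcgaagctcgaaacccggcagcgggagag

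The 10 motifs were searched on both strands, each spelled here with the share of 32851 promoter windows of the same length that held it. They were a cAMP response element half-site TGACG (20.8%), an E-box CACGTG (7.15%), a TATA box TATAAA (13.6%), a CCAAT box (37.4%), a GC box GGGCGG (35.7%) and a C/EBP-type motif TTNNGNAA (40.7%). The others were an AP-1 motif TGANTCA (7.81%), an antioxidant response element core TGACNNNGC (12.4%), a xenobiotic response element core GCGTG (32.4%) and an NF-kB-type motif, GGGA and CC with 4 bases of any kind between them (20.7%). The Ptgs2 window held a GC box from base -170 to -165 relative to the start site, GCGTG from -98 to -94 and 2 C/EBP-type matches from -69 to -62 and from -25 to -18. It also held the half-site as CGTCA from base 14 to 18, which overlapped the E-box from base 17 to 22. The Ptger4 window held a CCAAT box from -75 to -71 and 4 GC boxes, all on the strand opposite to transcription. The Ptgs1 window held none of the letters searched, which says nothing of the factors themselves. Promoter windows were found for 9 of the 10 members. A match describes letters only, and no binding was measured in these cells.

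Whether pulse stimulation shifted the prostaglandin genes was asked by comparing EPS with control myotubes, gene by gene. Both cyclooxygenases and the prostaglandin E2 receptor Ptger4 were higher in EPS myotubes on average, Ptgs1 1.94-fold, Ptgs2 2.18-fold and Ptger4 1.78-fold in mean CPM, and in limma no member was past the threshold of the study's results, an unadjusted P under 0.01 together with a change of more than 2-fold. In limma, 0 of the 9 members tested were up-regulated and 0 were down-regulated by that rule, against 0.966% up-regulated (185 genes) and 0.439% down-regulated (84 genes) of all genes tested. None had a Benjamini-Hochberg adjusted p under 0.05, which 0.141% of all genes reached (27 genes). At an unadjusted P under 0.05, 3 members were higher (Ptgs1, Ptgs2 and Ptger4) and none lower, against 8.4% of all genes that were higher at that P, and Ptgs1 and Ptger4 were also under 0.01, against 2.83% of all genes. These calls depended on single libraries. When 1 library was left out, Ptgs1 and Ptger4 stayed under 0.05 in all 7 omissions and Ptgs2 in 3 of them (without control replicate 3, EPS replicate 1 or EPS replicate 3). Under 0.01, Ptgs1 and Ptgs2 were found in 2 omissions (without control replicate 3 or EPS replicate 1) and Ptger4 in 0. Without control replicate 4, the members under 0.05 were 4 (Ptgs1, Ptges2, Hpgd and Ptger4, all higher, as were 7.37% of all genes in that fit) and those under 0.01 were 0, and quantile or median-of-ratios scaling also left 0 under 0.01. In Ptgs1 and Ptger4, all EPS libraries lay above all control libraries, as in 7.76% of all genes tested, and in no member did every EPS library lie below, as in 2.85% of all genes. The median log2 fold change was 0.32 over the 8 members with a mean of at least 1 CPM, beside 0.10 over all 12256 such genes, where log2 fold changes are differences in log2(CPM + 1), a scale that understates changes of low genes. The median of the members depended on control replicate 4. Without that library it lay between 0.52 (Ptges2) and 0.69 (Ptger4), beside 0.0921 over all such genes. Count-based tests on the reads recovered from the CPM values placed 1 member, Ptgs2, past the same threshold in edgeR's quasi-likelihood test (1.72% of all genes up-regulated), edgeR's exact test, run without TMM normalization (2.42%), and DESeq2 (1.66%). The labels do not say whether the libraries came from separate cultures, so the P-values measure the spread between these libraries. In bulk RNA, fewer cells of a type and less RNA per cell cannot be told apart.

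**Figure D1:**
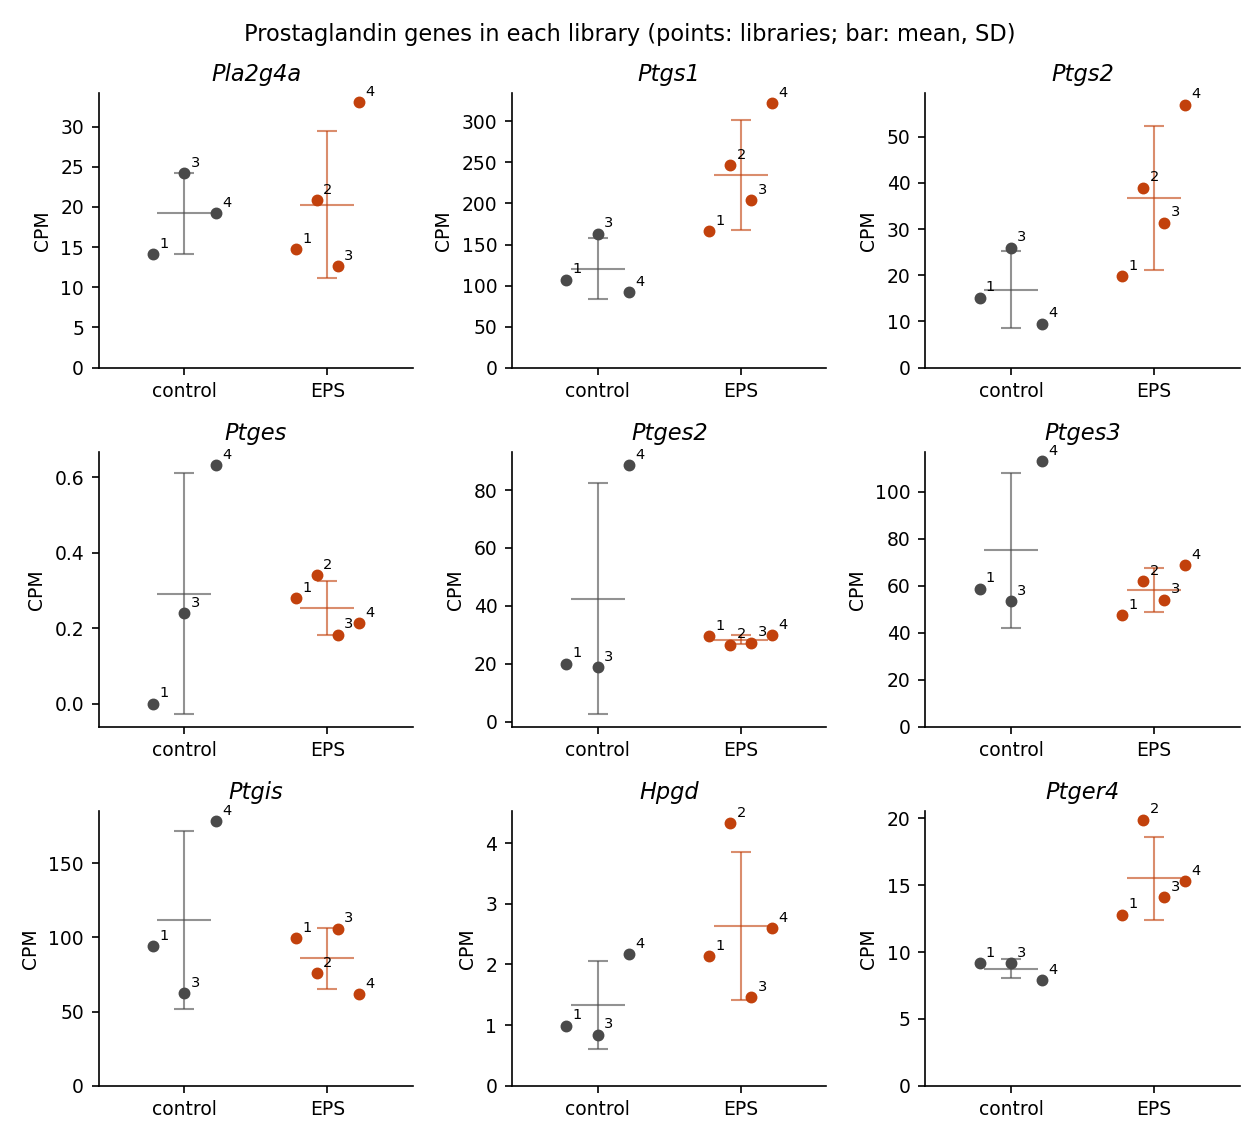
CPM (vertical axes, each from 0 or just below it) of the 9 members detected, in the control (grey) and EPS (orange) libraries. Points are libraries with their replicate number, and bars are the mean and SD. Ptgs1 and Ptger4 show all 4 EPS libraries above all 3 control libraries, and control replicate 4 is the highest point for Ptges2 (88.7 CPM), Ptges3 (113 CPM) and Ptgis (179 CPM).

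Arachidonic acid release by Pla2g4a, the cytosolic phospholipase A2 on chr1:149829618-149961290 (minus strand, ENSMUSG00000056220.14), had a mean level in EPS myotubes close to that in control. Its control libraries stood at 14.1, 24.2 and 19.2 CPM in replicates 1, 3 and 4, and its EPS libraries at 14.7, 20.9, 12.6 and 33.0 CPM in replicates 1 to 4. The groups overlapped, and both the lowest library (EPS replicate 3) and the highest (EPS replicate 4) were EPS libraries. Mean levels were 19.2 ± 5.07 CPM (SD, n = 3) in control and 20.3 ± 9.18 CPM (SD, n = 4) in EPS myotubes. The limma log2 fold change was 0.02 (SE 0.33, 95% interval -0.75 to 0.78, adjusted p = 0.986), and 0.03 without control replicate 4.

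Ptgs1 encodes COX-1, the cyclooxygenase that most tissues make constitutively. The gene lies at chr2:36230426-36252272 on the plus strand (ENSMUSG00000047250.13) and shares 148 exon bases with the transcript model Gm43621 on the opposite strand. Its control libraries stood at 107, 163 and 91.7 CPM, and its EPS libraries at 166, 246, 204 and 322 CPM. Every EPS library was higher than every control library, although the nearest pair, EPS replicate 1 and control replicate 3, differed by little. Mean levels were 121 ± 37.6 CPM (SD, n = 3) and 235 ± 66.7 CPM (SD, n = 4), a 1.94-fold difference. The limma log2 fold change was 0.95 (SE 0.27, 95% interval 0.35 to 1.56, P = 0.00637, adjusted p = 0.210), and the exact permutation test on mean CPM, two-sided, gave p = 0.0571. Without control replicate 4, where Ptgs1 was lowest, the log2 fold change was 0.78 (limma adjusted p = 0.351). edgeR's exact test without TMM normalization was the alternative in which Ptgs1 reached an adjusted p under 0.05 (adjusted p = 0.0434, range over all alternatives 0.0434 to 0.594). How many of all genes reached it in that test was not computed, and 2.42% were up-regulated there at P under 0.01 and 2-fold.

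Ptgs2 encodes COX-2, the inducible cyclooxygenase and an early response gene in many cells. The gene lies at chr1:150100031-150108227 on the plus strand (ENSMUSG00000032487.8). Its control libraries stood at 15.2, 26 and 9.54 CPM, and its EPS libraries at 19.7, 39.0, 31.4 and 56.9 CPM. The order of the libraries was almost that of Ptgs1, except that control replicate 3 lay above EPS replicate 1, so the groups overlapped. Mean levels were 16.9 ± 8.37 CPM (SD, n = 3) and 36.8 ± 15.6 CPM (SD, n = 4), a 2.18-fold difference. The limma log2 fold change was 1.09 (SE 0.40, 95% interval 0.18 to 1.99, P = 0.0238, adjusted p = 0.332), and the exact permutation test gave p = 0.114. The unadjusted P under 0.01 was met in edgeR's quasi-likelihood test (log2 fold change 1.03, P = 0.00469, adjusted p = 0.141), in edgeR's exact test without TMM (P = 0.00392) and in DESeq2 (P = 0.00711), with adjusted p over all alternatives from 0.106 to 0.644. Without control replicate 4, the lowest library, the log2 fold change was 0.76 (limma adjusted p = 0.527), and without control replicate 3 it was 1.44. Leaving out control replicate 3 or EPS replicate 1 placed both Ptgs1 and Ptgs2 past the threshold of P under 0.01 and 2-fold, as it did 1.23% and 1.02% of all genes in those fits.

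The balance between the cyclooxygenases was compared within each library, where the scaling of a library cancels. The ratio of Ptgs2 to Ptgs1 in CPM was 0.141, 0.159 and 0.104 in the control libraries and 0.119, 0.158, 0.154 and 0.177 in the EPS libraries, in the order of their replicate numbers. These ranges overlapped. Per kilobase of exon, Ptgs2 was at 0.0882 to 0.135 of the Ptgs1 level in control and at 0.101 to 0.1499 in EPS libraries, so Ptgs1 was the more abundant transcript in each library. Ptgs2 and Pla2g4a are neighbours on chromosome 1, transcribed away from each other across a gap of 138740 bases that holds 3 annotated genes, none of them protein-coding. The ratio of Ptgs2 to Pla2g4a was 1.07, 1.07 and 0.497 in control and 1.34, 1.87, 2.49 and 1.72 in EPS libraries. Here every EPS library lay above every control library, but this ratio was chosen after its values were seen and carries no test.

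**Figure D2:**
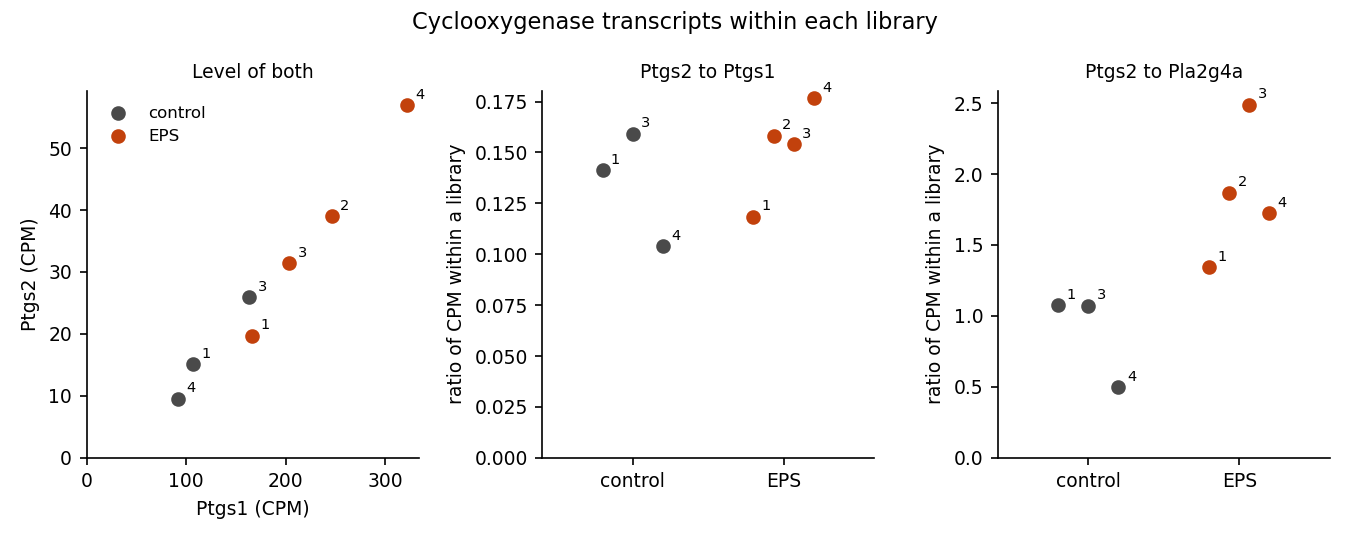
Ptgs2 against Ptgs1 in CPM (left), and the ratio of Ptgs2 to Ptgs1 (middle) and to Pla2g4a (right) in CPM within each library, with control in grey, EPS in orange and replicate numbers beside the points. The ratios to Ptgs1 (0.104 to 0.159 in control, 0.119 to 0.177 in EPS) overlap between groups, whereas those to Pla2g4a (0.497 to 1.07 in control, 1.34 to 2.49 in EPS) do not. The ratio to Pla2g4a was chosen after its values were seen and carries no test.

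Of the 4 terminal synthases, none passed the test, and all were highest in control replicate 4. Ptges, the inducible microsomal prostaglandin E synthase (chr2:30889471-30929863, minus strand, ENSMUSG00000050737.13), was close to the limit of detection, with 0, 4 and 14 reads in control and 6, 7, 4 and 4 reads in EPS libraries. These reads correspond to 0 to 0.633 CPM in control and 0.183 to 0.341 CPM in EPS myotubes, and a difference between groups was not detectable at this depth (limma log2 fold change -0.01, 95% interval -0.34 to 0.31, adjusted p = 0.969). The 14 reads were those of control replicate 4, without which the log2 fold change was 0.17 (limma adjusted p = 0.564, range over all alternatives 0.564 to 1), at 0 and 4 reads in the remaining controls.

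Ptges2, the membrane-associated prostaglandin E synthase (chr2:32395896-32405772, plus strand, ENSMUSG00000026820.5), was at 20.1, 18.9 and 88.7 CPM in control and at 29.7, 26.7, 27.4 and 29.9 CPM in EPS libraries. Control replicate 4 lay far above the other 6 libraries, and the 4 EPS libraries lay close together. With all libraries the log2 fold change was -0.19 (SE 0.47, limma adjusted p = 0.883). Without control replicate 4 its sign turned to 0.52 (limma adjusted p = 0.282, range over all alternatives 0.282 to 0.933), a 1.46-fold higher mean with every EPS library above both remaining controls. The count-based tests of all libraries gave larger negative log2 fold changes than limma. These were -0.70 in edgeR's quasi-likelihood test, -0.58 in its exact test without TMM and -0.70 in DESeq2.

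Ptges3, the cytosolic prostaglandin E synthase that is also the Hsp90 co-chaperone p23 (chr10:128058954-128077272, plus strand, ENSMUSG00000071072.12), was at 58.7, 53.3 and 113 CPM in control and at 47.4, 62.0, 54.1 and 68.7 CPM in EPS libraries. The log2 fold change was -0.30 (SE 0.26, limma adjusted p = 0.720), and 0.04 without control replicate 4. A processed pseudogene of it, Ptges3-ps, is annotated, so some reads could have been assigned to either. Ptgis, the prostacyclin synthase (chr2:167191805-167240604, minus strand, ENSMUSG00000017969.13), was at 94.0, 62.3 and 179 CPM in control and at 99.7, 76.0, 106 and 61.9 CPM in EPS libraries. Its log2 fold change was -0.27 (SE 0.34, limma adjusted p = 0.813), and 0.13 without control replicate 4. It shares 156 exon bases with the transcript 1110018N20Rik on the opposite strand.

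Hpgd, the 15-hydroxyprostaglandin dehydrogenase that inactivates prostaglandins (chr8:56294585-56321043, plus strand, ENSMUSG00000031613.9), was a low-abundance transcript. The libraries held 17, 14 and 48 reads in control and 46, 89, 32 and 49 reads in EPS, which is 0.991, 0.843 and 2.17 CPM against 2.14, 4.34, 1.46 and 2.60 CPM. Control replicate 4 lay above EPS replicates 1 and 3, so the groups overlapped, whereas control replicates 1 and 3 lay below every EPS library. Mean levels were 1.34 ± 0.727 CPM (SD, n = 3) and 2.63 ± 1.23 CPM (SD, n = 4). The log2 fold change was 0.62 (SE 0.31, 95% interval -0.07 to 1.32, limma P = 0.0720, adjusted p = 0.476), and the exact permutation test gave p = 0.171. Without control replicate 4, the difference was 2.87-fold in mean CPM (log2 fold change 0.87, limma adjusted p = 0.325). edgeR's quasi-likelihood test without that library, an alternative chosen after seeing the data, placed Hpgd past P under 0.01 and 2-fold, as it did 1.35% of all genes. In the same 6 libraries, 4 members (Ptgs1, Ptges2, Hpgd and Ptger4) had every EPS library above both controls, against 13.2% of all genes. The ratio of Ptgs2 to Hpgd ranged from 4.396 to 30.9 in control and from 8.99 to 21.9 in EPS libraries, and the ranges overlapped.

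Ptger4 encodes EP4, a prostaglandin E2 receptor that raises cyclic AMP. The gene lies at chr15:5206661-5244187 on the minus strand (ENSMUSG00000039942.15). Its control libraries stood at 9.15, 9.15 and 7.91 CPM (157, 152 and 175 reads), and its EPS libraries at 12.8, 19.9, 14.1 and 15.3 CPM (275, 409, 309 and 288 reads). All 4 EPS libraries exceeded all 3 control libraries, which lay within a narrow range. Mean levels were 8.74 ± 0.715 CPM (SD, n = 3) and 15.5 ± 3.10 CPM (SD, n = 4), a 1.78-fold difference. The limma log2 fold change was 0.75 (SE 0.22, 95% interval 0.25 to 1.25, P = 0.00830, adjusted p = 0.231), and the exact permutation test gave p = 0.0286, the smallest that 35 splits of 7 libraries allow. Leaving out control replicate 4 left the log2 fold change at 0.69 (limma adjusted p = 0.318). Ptger4 shares 82 exon bases with Ttc33 and 1015 with the pseudogene Gm15937, both on the opposite strand, and it is not stated whether the counting used strand.

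Ptger2 encodes EP2, the other receptor that raises cyclic AMP in response to prostaglandin E2 (chr14:44988195-45003820, plus strand, ENSMUSG00000037759.6). It was at 0 reads in all 7 libraries, which allows a level of up to 0.136 to 0.181 CPM depending on the library. Of the prostaglandin E2 receptors that are not members, Ptger1 is given with its list, and Ptger3 was also at 0 reads.

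**Figure D3:**
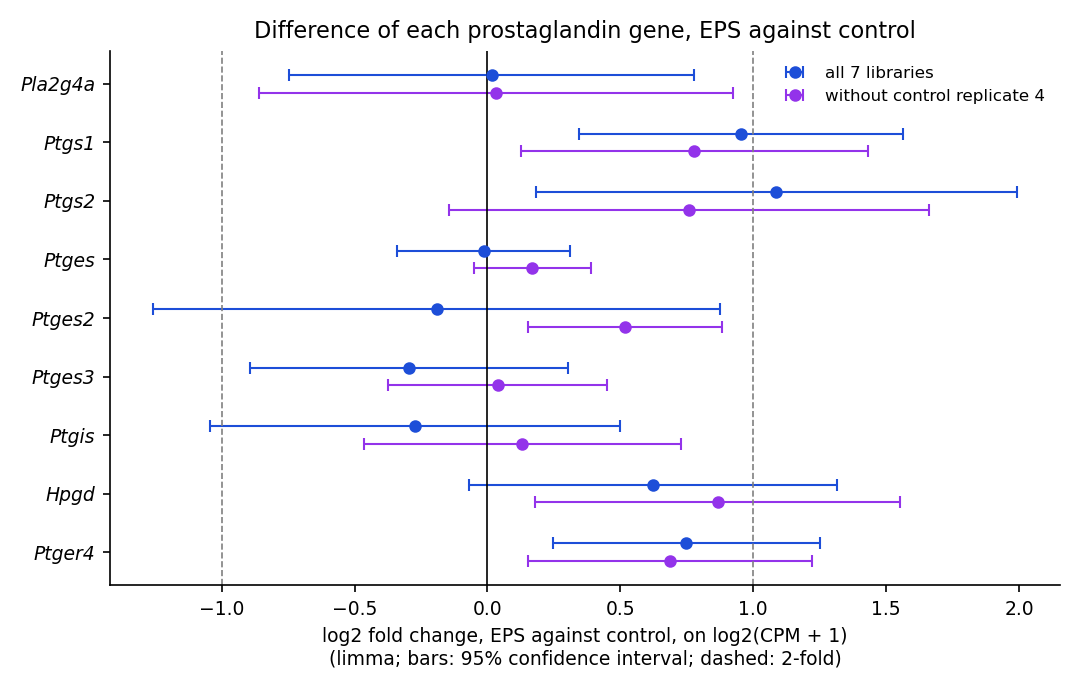
limma log2 fold changes (EPS minus control, difference in log2(CPM + 1)) of the 9 members tested, with 95% confidence intervals as bars, from all 7 libraries (blue) and without control replicate 4 (purple). Dashed lines mark 2-fold. The intervals of Ptgs1, Ptgs2 and Ptger4 from all libraries lie above 0 and those of the other 6 members include 0, whereas without control replicate 4 the interval of Ptgs2 (-0.15 to 1.66) includes 0 and those of Ptges2 (0.15 to 0.88) and Hpgd (0.18 to 1.55) lie above it.

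Levels were then compared between members per kilobase of exon, as CPM per kb. The length was that of all annotated exons of a gene, merged over its transcripts. It can exceed the length of the transcript made in these cells, so the order of genes can depend on the annotation. In control myotubes Ptgis (43.5), Ptges3 (33.8) and Ptgs1 (31.1) were the most abundant members and their ranges overlapped, and all of the Ptgs1 libraries lay above those of the next member, Ptges2 (8.41). Ptges2, Ptgs2 (3.69) and Pla2g4a (3.003) overlapped in turn, Pla2g4a lay above Ptger4 (1.31) in every library, and Ptger4 overlapped Hpgd (0.793). Ptges (0.0741) was last among the members detected. In EPS myotubes Ptgs1 stood first at 60.4, with each of its libraries (42.9 to 82.9) above those of Ptgis (24.1 to 41.3). Ptgis (33.5) and Ptges3 (26.2) overlapped, Ptgs2 (8.03) and Ptges2 (5.62) followed and overlapped, and Pla2g4a (3.18), which lay below Ptges2 in each library, overlapped Ptger4 (2.34), which in turn overlapped Hpgd (1.57). Each Hpgd library lay above those of Ptges (0.0646). The places of Ptgs1 and Ptges2 in control rested on control replicate 4. Over control replicates 1 and 3, Ptgs1 stood first with a mean of 34.8, above Ptgis at 30.45 and Ptges3 at 25.3, as it did in EPS myotubes, and Ptges2 at 3.86 followed Ptgs2 at 4.49. That order of means rested on control replicate 3. In control replicate 1, Ptgis (36.6) lay above Ptgs1 (27.6), and Ptges2 (3.98) above Ptgs2 (3.31).

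**Figure D4:**
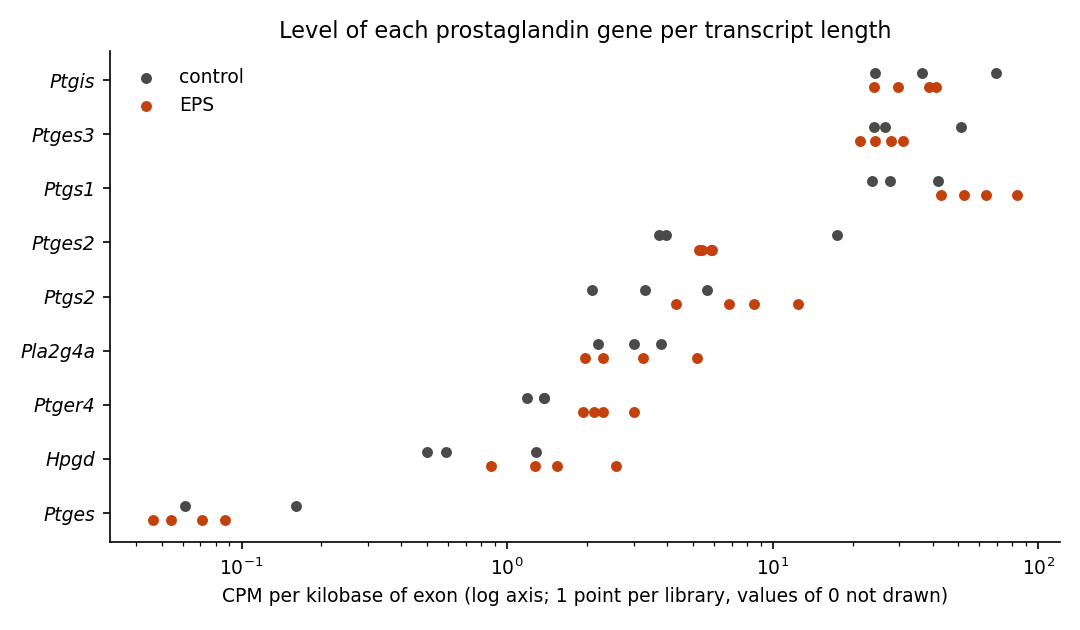
CPM per kilobase of exon (horizontal log axis) of each member detected, 1 point per library, with control in grey, EPS in orange, members in the order of their control mean and values of 0 not drawn. Ptgs1 has a mean of 31.1 in control and 60.4 in EPS libraries, and Ptgs2, with means of 3.69 and 8.03, lies below it in every library.

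The genes most like Ptgs2 across the 7 libraries were sought among 12256 genes with a mean of at least 1 CPM, by Pearson's r of log2(CPM + 1). They were Cat (catalase, r = 0.98), Parp12 (0.98), Adi1 (0.97), Trim16 (0.97) and Gprc5a (0.96). Of the members, Ptgs1 (r = 0.98) would have ranked number 2 in that search, followed at a distance by Ptger4 (0.81), Pla2g4a (0.51) and Hpgd (0.37). Ptges3 (-0.42), Ptges2 (-0.50) and Ptgis (-0.80) ran the other way. Control replicate 4 was the lowest library of Ptgs2 and the highest of each of these genes. As r was not computed without that library, these negative signs may rest on it. All of these points share their libraries and scaling, and 7 points with 2 groups among them make r a description only.

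A further 51 genes of prostanoid and leukotriene biology were counted by role. Of these, 47 were tested, 2 were up-regulated (Abcc4 and Cbr3), 0 were down-regulated and 0 had an adjusted p under 0.05 in limma, and 5 were higher and none lower at an unadjusted P under 0.05. Abcc4 and Cbr3 also had an adjusted p under 0.05 in each of the count-based tests on the recovered reads (edgeR's quasi-likelihood test, edgeR's exact test without TMM and DESeq2). The share of all genes at that adjusted p was not computed for those tests. In the same order, they called 1.72%, 2.42% and 1.66% of all genes up-regulated at P under 0.01 and 2-fold. Of all genes tested in limma, 0.966% were up-regulated, 0.439% were down-regulated, 0.141% had an adjusted p under 0.05 and 8.4% were higher at an unadjusted P under 0.05. The edgeR exact test without TMM placed 3 of the genes past the threshold of P under 0.01 and 2-fold, Ptgr1 in addition, against 2.42% of all genes up-regulated in that test. The 2 genes up-regulated were a transporter and a reductase. The median log2 fold change of the 26 genes with a mean of at least 1 CPM was 0.11, near the 0.10 of all genes at that level.

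Abcc4 (MRP4), which is known to export prostaglandins from cells, was at 8.92, 7.64 and 6.46 CPM in control and at 16.5, 19.4, 21.7 and 45.9 CPM in EPS libraries. Every EPS library was higher than every control library, EPS replicate 4 by the widest margin. Its mean was 7.68 CPM in control and 25.9 CPM in EPS myotubes (log2 fold change 1.53, SE 0.34, limma P = 0.00155, adjusted p = 0.123, exact permutation p = 0.0571). Its adjusted p was 0.00746 in edgeR's quasi-likelihood test, 3.41e-04 in edgeR's exact test and 4.74e-04 in DESeq2, and ranged up to 0.541 over all alternatives. Cbr3, a carbonyl reductase, was at 6.996, 10.6 and 12.0 CPM in control and at 15.8, 23.3, 20.4 and 43.5 CPM in EPS libraries. Its mean was 9.86 CPM in control and 25.8 CPM in EPS myotubes (log2 fold change 1.23, SE 0.34, limma P = 0.00596, adjusted p = 0.207, exact permutation p = 0.0571). Its adjusted p was 0.0370 in edgeR's quasi-likelihood test, 0.0103 in edgeR's exact test and 0.0136 in DESeq2, and ranged up to 0.523 over all alternatives. Cbr3 was no longer past the threshold when control replicate 1, control replicate 3, EPS replicate 2 or EPS replicate 4 was left out, with log2 fold changes of 0.95 to 1.42 over all 7 omissions, whereas Abcc4 was past it in each omission.

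Among the other synthases and reductases, 1 of 10 genes was up-regulated and 3 more (Akr1b3, Akr1b8 and Cbr1) were higher at an unadjusted P under 0.05, beside 0.966% and 8.4% of all genes by the same rules. The aldose reductase Akr1b3, which can act as a prostaglandin F synthase, stood at 166, 197 and 252 CPM in control and at 278, 445, 304 and 396 CPM in EPS libraries (log2 fold change 0.79, limma adjusted p = 0.217). Cbr1 had means of 16.3 and 28.9 CPM (0.78, adjusted p = 0.253) and Akr1b8 means of 74.5 and 107 CPM (0.51, adjusted p = 0.401). Cbr2 had means of 69.4 and 45.6 CPM (log2 fold change -0.49) and, like the prostaglandin E synthases, was highest in control replicate 4, without which the log2 fold change was -0.0828. Cbr1 with Cbr3 and Akr1b3 with Akr1b8 are close paralogs, so reads could be split between them.

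In the list of inactivation and transport, 1 of 5 genes was up-regulated, Abcc4 above. Ptgr1, a prostaglandin reductase, was at 42.7 to 67.8 CPM in control and at 67.2 to 201 CPM in EPS libraries (log2 fold change 0.85, limma adjusted p = 0.440), with EPS replicate 4 far above the rest. Ptgr2 (50.9 and 56.2 CPM in control and EPS means) and Zadh2 (19.2 and 23.4 CPM) did not pass the test (limma adjusted p = 0.813 and 0.706).

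Of 15 phospholipase and release genes, 0 were past the threshold and 0 were at an unadjusted P under 0.05 in limma. The 4 with the most reads were Pla2g16 (means of 110.3 CPM in control and 111.3 CPM in EPS), Plaa (107 and 130 CPM), Lypla1 (59.5 and 67.7 CPM) and Pla2g6 (40.9 and 38.2 CPM). Of 8 other prostanoid receptors or receptor partners, 7 were tested and 0 passed either threshold in limma, and Ptger3 was at 0 in every library. Ptger1, the EP1 receptor, had means of 70.1 and 64.8 CPM (log2 fold change -0.12), or 12.8 and 11.9 CPM per kb against 1.31 and 2.34 for Ptger4. As the use of strand in counting is not known, reads from the opposite strand could be part of it. Ptgfr, the prostaglandin F2 alpha receptor, had means of 8.16 and 7.88 CPM, and Ptgir, the prostacyclin receptor, 4.87 and 5.28 CPM. Ptgfrn, a negative regulator of the prostaglandin F2 alpha receptor, held the most reads of the list, with means of 739 and 621 CPM. Of 13 lipoxygenase and leukotriene genes, 10 were tested and 0 passed either threshold in limma. Alox5, the 5-lipoxygenase that opens the leukotriene branch of the same arachidonic acid pool, had means of 144 and 172 CPM (log2 fold change 0.25), and Lta4h means of 77.3 and 84.8 CPM. Alox5ap, the activating protein of 5-lipoxygenase, was low, with means of 0.639 and 0.716 CPM (5 to 20 reads in control and 7 to 24 in EPS libraries), and Ltc4s had means of 1.90 and 2.05 CPM.

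**Figure D5:**
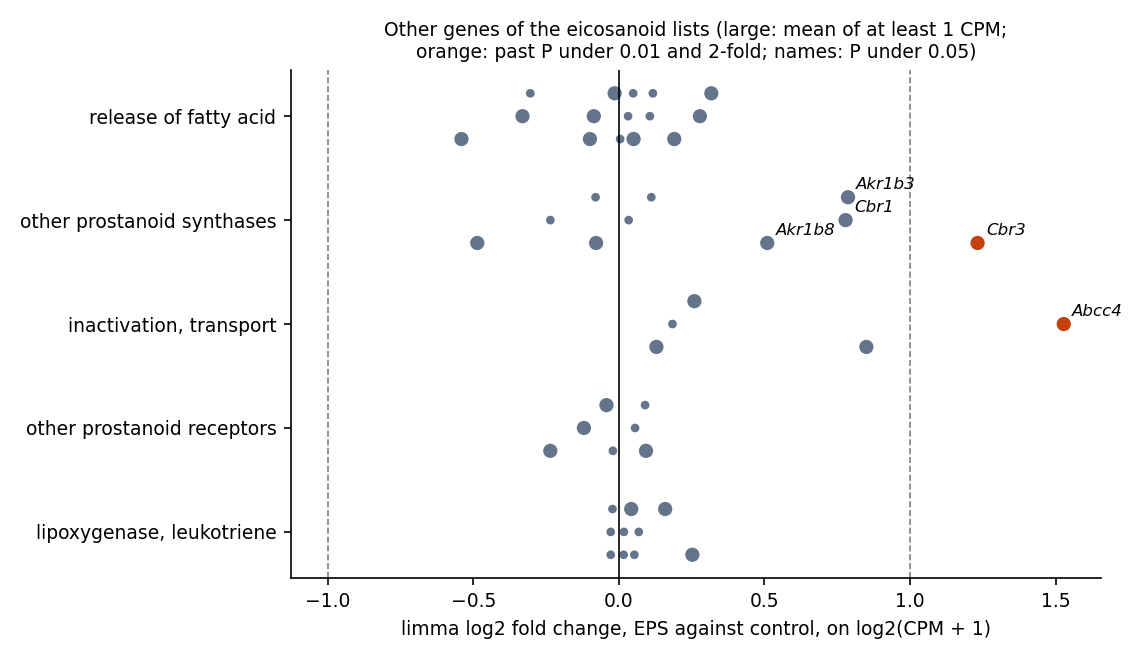
limma log2 fold changes (difference in log2(CPM + 1), EPS minus control) of the 47 genes tested in the 5 pathway lists, 1 point per gene, with large points for a mean of at least 1 CPM and dashed lines at 2-fold. Abcc4 (1.53) and Cbr3 (1.23) are the 2 genes past P under 0.01 and 2-fold, and the points of the receptor and leukotriene lists lie around 0.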

How the data were processed

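RNA-seq libraries of C2C12 myotubes, 3 control and 4 EPS, were analysed. Per the labels and the study's methods, poly(A) RNA was made into directional libraries, sequenced as paired reads of 100 bases and mapped with STAR 2.5.4b to GRCm38. The authors deposited 1 table per library with a CPM value (reads scaled to the library total) for each of 26607 gene symbols. The read counter, its annotation and its use of strand are not given in the sources used here.

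In all 7 tables, 100% of the values gave whole reads within 0.02 reads, so the totals of 16616917 to 22120641 reads per library were recovered from them. Genes above 0 in at least 1 library (19144) were compared on log2(CPM + 1) in limma 3.58.1 (R 4.3.3), with a trended empirical Bayes fit, two-sided P-values and Benjamini-Hochberg adjustment over all genes tested. A gene was called up- or down-regulated at P under 0.01 and more than 2-fold, the thresholds of the study's results. Its methods name P under 0.001, which was run as an alternative. An exact permutation test over all 35 splits of 3 against 4 libraries was run on each member's CPM. Since the values are CPM, the count models were alternatives, run on the recovered reads: edgeR 4.0.16 (quasi-likelihood with TMM, and its exact test without TMM) and DESeq2 1.42.0. The study's methods name edgeR on counts. Other alternatives were pseudocounts of 0.5 and 0.1, a mean of at least 1 CPM, quantile and median-of-ratios scaling, a robust fit, a replicate block and leaving out each library. A further 2, both without control replicate 4, were chosen after seeing the data.

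The genes named were all members, and of each of 5 pathway lists every gene past the threshold and the 4 with the highest mean CPM, and the 5 genes most like Ptgs2. Akr1b8 and Cbr1 were among those 4, as was Cbr2. The members and lists were chosen with earlier results of these data known. The scripts were tested on simulated data. Coordinates and exon lengths came from GENCODE M21 (GRCm38), where older symbols in the tables were matched through the RefSeq gene table, and promoter sequences from RefSeq (GRCm38.p6).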

Additional observations from a re-analysis of the deposited data

Results flagged for a closer look

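Ptgr1, a prostaglandin reductase, had 1 library far from the others in the EPS group. EPS replicate 4 stood at 201 CPM, while the other 3 EPS libraries lay at 67.2 to 75.2 CPM, and the gap made up 0.94 of the range, above Dixon's 95% critical value for 4 samples. Chance alone marks about 5% of groups in this way, and the 4 EPS libraries were tested for 30 genes. Ptgr1 had an adjusted p of 0.440 in limma with this library. Without it, the log2 fold change of Ptgr1 was 0.47.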

How the results depend on the processing

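Ptgs1, Ptgs2, Hpgd and Ptger4 kept a positive log2 fold change in all 20 alternatives, with ranges of 0.67 to 1.19, 0.65 to 1.44, 0.42 to 1.40 and 0.58 to 0.83. Not all of these alternatives could move it. P under 0.001, the robust fit and a mean of at least 1 CPM left the log2 fold change as it was. The replicate block gave these genes the same value as leaving out EPS replicate 2. The number of members up-regulated, 0 in the limma fit of all libraries, was 1 in edgeR's quasi-likelihood test with TMM, edgeR's exact test without TMM and DESeq2 (Ptgs2 each time), 1 in edgeR's quasi-likelihood test without control replicate 4 (Hpgd), and 0 to 2 when 1 library was left out (2 without control replicate 3 or EPS replicate 1). The number of members with an adjusted p under 0.05 was 1 in edgeR's exact test without TMM (Ptgs1) and 0 in the other alternatives, and no alternative placed a member among the down-regulated. The share of all genes at that adjusted p was not computed for the exact test, which called 2.42% up-regulated at P under 0.01 and 2-fold. The number of pathway genes up-regulated, 2 in that fit, was 1 with the replicate block (Cbr3), 0 at P under 0.001 and 1 to 2 when 1 library was left out (1, Abcc4, without control replicate 1, control replicate 3, EPS replicate 2 or EPS replicate 4). With the replicate block, in which EPS replicate 2 has no partner, Ptgs1 was at 0.92 and Ptgs2 at 1.03, both no longer under an unadjusted P of 0.05, Ptger4 at 0.63, under 0.05 but not under 0.01, and Abcc4 at 1.62, no longer under 0.01. The replicate numbers were not treated as pairs, since same-numbered deviations from the group means correlated at 0.25, -0.45 and 0.068 for replicates 1, 3 and 4 over 12256 genes. Differently numbered libraries ranged from -0.46 (control replicate 1 with EPS replicate 2) to 0.59 (control replicate 1 with EPS replicate 3), with 0.36 for control replicate 3 with EPS replicate 2. Whether control and EPS libraries share a batch under other numbers was not tested. Some signs turned. Pla2g4a was at -0.12 with quantile and -0.0925 with median-of-ratios scaling, -0.0281 with the replicate block, -0.0247 in edgeR's quasi-likelihood test, -0.0375 in DESeq2, and -0.012 and -0.0756 in the 2 added fits without control replicate 4. In those same 2 fits (edgeR, then median-of-ratios scaling) Ptges was at 0.97 and 0.15, Ptges2 at 0.45 and 0.41, and Ptgis at 0.049 and 0.0201. Ptges was also at 0.0053 and 0.25 with pseudocounts of 0.5 and 0.1. Pla2g16 was at 0.0125 in edgeR's exact test without TMM, Ptger1 at 0.0724 and Alox5ap at -0.0703 with the replicate block, Ptgir at -0.0599 and -0.00097 and Ltc4s at -0.0243 and -0.0301 with quantile and median-of-ratios scaling. When 1 library was left out, the range was -0.24 to 0.20 for Pla2g4a, -0.18 to 0.17 for Ptges, -0.57 to 0.52 for Ptges2, -0.50 to 0.0387 for Ptges3 and -0.62 to 0.13 for Ptgis. It was -0.17 to 0.0798 for Pla2g16, -0.34 to 0.0772 for Ptger1, -0.17 to 0.19 for Ptgfr, -0.0051 to 0.19 for Ptgir, -0.11 to 0.17 for Alox5ap, -0.0681 to 0.33 for Lta4h and -0.12 to 0.23 for Ltc4s. The cause of these differences between settings was not tested. Quantile or median-of-ratios scaling moved the median of genes with a mean of at least 1 CPM from 0.10 to 0.0052 and -0.0048. Ptges held 0 to 14 reads a library, and Hpgd 14 to 89 reads.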
